A study of Mus musculus with 22 samples.

Results

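Skipped-exon events of the tyrosine kinase genes Fgfr2 and Src were examined in mouse embryonic stem (ES) cells. All events whose span, from the first base of one flanking exon to the last base of the other, lay within the mm10 span of either gene were taken, from all 7 deposited files. There were 14 such events of 10873 in all: 8 events over 6 exons in Fgfr2 (chromosome 7, 130162451 to 130266808, minus strand) and 6 events over 4 exons in Src (chromosome 2, 157423906 to 157471838, plus strand). No other gene in the RefSeq table overlapped these spans. The 2 genes were singled out because of measured values: Fgfr2 for an exon of 145 nt that differed between single HP1 knock-downs and wild-type cells, and Src for an exon of 108 nt that differed between TKO and wild-type cells. Those values are therefore a description, and nothing is read from the call rule where it marks these same events.

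The cells were R1 ES cells (WT) and ES cells with a triple knockout of Dnmt1, Dnmt3a and Dnmt3b (TKO), which lack the enzymes that methylate DNA. WT cells also received siRNA against HP1alpha, HP1beta or HP1gamma at 90 nM (HP1a-KD, HP1b-KD and HP1g-KD), or against all 3 at 60 nM each (HP1abg-KD). TKO cells received the 3 siRNAs together at 80, 80 and 120 nM (TKO HP1abg-KD). HP1 proteins are chromatin readers that bind methylated histone H3. RNA of siRNA-treated cells was taken after 48 h. Each group had 2 replicates, which the authors merged before deposit, so each group is 1 pooled library with no replicate error. WT and TKO were single-end reads of 50 bases from untransfected cells, and all 5 knock-down libraries were paired reads of 101 bases after transfection. The labels name no control siRNA, and effects of HP1 loss, of transfection and of read type therefore cannot be told apart in any comparison with WT or TKO. TKO is another cell line than R1, and any further difference between those lines cannot be told apart from the knockout.

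FGFR2 is a receptor for fibroblast growth factors with up to 3 immunoglobulin-like (Ig) domains outside the cell and a tyrosine kinase inside it. The second part of the Ig domain nearest the membrane is encoded by either of a pair of mutually exclusive exons, IIIb and IIIc, and this choice sets which growth factors the receptor binds. Epithelial cells typically make the IIIb form and mesenchymal cells the IIIc form, and the splicing factors ESRP1 and ESRP2 are known to favour IIIb. SRC is a cytoplasmic tyrosine kinase that acts downstream of growth factor receptors and integrins. Its gene has several alternative untranslated leader exons, and neurons insert a very short exon, N1, that lengthens a loop of the SH3 domain.

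The files carry coordinates but no exon names or reading frames, so names and coding status come from general knowledge of the genes, matched by order, position and length. In Fgfr2, exon IIIa (130200983 to 130201173, 191 nt) is followed by exon IIIb (130199758 to 130199905, 148 nt), exon IIIc (145 nt, beginning after an intron of 1194 nt) and a shared exon (130196178 to 130196374). All of IIIa, IIIb and IIIc are coding. IIIb and IIIc differ in length by a multiple of 3, so that either one keeps the same frame in the shared exon. Upstream lie exon 3 (130242378 to 130242644, 267 nt), which encodes the outermost Ig domain, and exon 4 (130241200 to 130241277, 78 nt), which encodes the acid box between Ig domains. Both are coding and their lengths are multiples of 3. The sixth Fgfr2 exon (130227113 to 130227229, 117 nt) lies between exons 5 and 6, and whether it is coding is not known here. In Src, the exons of 108 nt, 106 nt (157431610 to 157431715) and 77 nt (157439201 to 157439277) lie in the 5′ untranslated part, and the 18-nt exon (157458843 to 157458860) is the coding N1 exon. Whether the 177-nt exon that follows the 77-nt exon (157455591 to 157455767) is coding is not known here.

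The first exon of the Src events starts at 157424293, which is also the start site of the RefSeq promoter window of Src, and the 108-nt exon begins 535 nt downstream of it. The 300-base window around that site (GRCm38.p6) held 47 CpG dinucleotides, the sites that are methylated in DNA, more than or as many as 98.8% of 32851 such windows. The Fgfr2 window held 4, against a median of 7 over all windows. The 30 bases just before each start site are shown 5′ to 3′ because the groups differ in DNA methylation, with each CpG in capitals, for Src at chr2:157424263-157424292 on the plus strand and for Fgfr2 at chr7:130266809-130266838 on the minus strand. Methylation at these sites was not analysed here.
Src: CGcCGcCGcctcctccctttctctCGgtct
Fgfr2: tcagaatctggttctgttactctgcaggca

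An inclusion level is the share of transcripts, from 0 to 1, that contain the skipped exon. It is the authors' estimate from the program MISO and comes with an interval, given here in brackets, whose level is not stated. Below it lie reads that fit inclusion alone, skipping alone, both or neither. Events with fewer than 100 reads over these classes are not in the files. Event reads per library ranged from 4677236 in HP1abg-KD to 25941844 in WT. Fgfr2 had 8 events listed in WT, TKO, HP1a-KD and HP1b-KD, 5 in HP1g-KD, 3 in HP1abg-KD and 0 in TKO HP1abg-KD. Src had 6 events in WT and TKO, 4 in each knock-down of WT cells and 3 in TKO HP1abg-KD. The largest Fgfr2 event had 27.6 RPM (its reads scaled to 1000000 event reads of the library) in WT, 17.1 RPM in TKO and 27.4 to 42.3 RPM in WT cells with a knock-down. In TKO HP1abg-KD no Fgfr2 event reached 100 reads, or 13.2 RPM. In these bulk libraries, fewer cells expressing a gene and less RNA per cell cannot be told apart. Of 20 ES cell markers 8 had an event, among them Sall4, Klf4, Zfp42 and Tdh, with a summed level of 2670 to 3840 RPM. That sum includes Dnmt3b, itself a target of the knockout, and its members did not move together. Zfp42 stood at 563 RPM in WT, 817 RPM in TKO and 185 to 230 RPM in the knock-down libraries. Tdh stood at 609 RPM in WT, 358 RPM in TKO and 1050 to 1220 RPM in the knock-down libraries. Pou5f1, Sox2 and Nanog have no listed event and could not be checked. Reads of the siRNA targets were lowest, among single knock-downs, in the library labelled for each target: Cbx5 (HP1alpha) at 43.0 RPM in HP1a-KD against 105 and 110, Cbx1 (HP1beta) at 507 RPM in HP1b-KD against 1520 and 1620, and Cbx3 (HP1gamma) at 32.2 RPM in HP1g-KD against 49.6 and 52.2. Under the triple knock-down Cbx1 stood at 551 RPM in WT cells and 1000 RPM in TKO cells, against 615 and 659 RPM in the untransfected lines. Cbx3 stood at 457 RPM in untransfected WT cells, far above every knock-down library including those not aimed at it, so these reads check the knock-downs only poorly. Dnmt3b stood at 562 RPM in WT and 88.1 RPM in TKO, and which of its exons the knockout removed is not given here.

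Exon IIIc of Fgfr2 was read almost always as included in untransfected cells, and less so after HP1 knock-down when the event was framed by exon IIIb. In the event with exon IIIb upstream and the shared exon downstream, the level was 0.98 (0.95 to 1.0) in WT and 0.99 (0.96 to 1.0) in TKO. It was 0.23 (0.16 to 0.32) in HP1a-KD, 0.42 (0.28 to 0.56) in HP1b-KD and 0.42 (0.29 to 0.58) in HP1g-KD. The untransfected libraries lie above all 3 single knock-downs with intervals apart, and the intervals of the 3 knock-downs overlap each other. Skipping in this event means that exon IIIb is joined straight to the shared exon, which is the IIIb form of the receptor. WT had 99 reads for inclusion and none for skipping, and TKO had 85 and none. The counts were 30 and 28 in HP1a-KD, 26 and 11 in HP1b-KD, and 25 and 11 in HP1g-KD. Reads across the junction of IIIb with the shared exon were thus found in each of these knock-down libraries and in neither untransfected one, although both untransfected libraries held reads of exon IIIb itself.

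With exon IIIa upstream instead, the IIIc levels lay closer together. They were 0.98 (0.93 to 1.0) in WT, 0.97 (0.94 to 1.0) in TKO, 0.70 (0.54 to 0.85) in HP1a-KD, 0.94 (0.81 to 1.0) in HP1b-KD, 0.87 (0.70 to 0.98) in HP1g-KD and 0.83 (0.54 to 0.99) in HP1abg-KD. Only the HP1a-KD interval is apart from those of WT and TKO. In this event skipping would join exon IIIa to the shared exon and leave out both IIIb and IIIc. HP1a-KD had 3 such reads beside 50 for inclusion, and the other 5 libraries had 0 beside 19 to 99. The size of the IIIc difference between knock-down and untransfected libraries therefore depends on which exon frames the event.

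Exon IIIb, framed by exon IIIa and the shared exon, had its lowest deposited level in TKO, on 6 inclusion reads and 0 skipping reads. It stood at 0.53 (0.36 to 0.69) in WT, 0.21 (0.09 to 0.41) in TKO, 0.70 (0.55 to 0.83) in HP1a-KD, 0.79 (0.56 to 0.97) in HP1b-KD, 0.79 (0.54 to 0.99) in HP1g-KD and 0.80 (0.46 to 0.98) in HP1abg-KD. The TKO interval is apart from those of all 4 knock-downs of WT cells but overlaps that of WT, and the WT interval overlaps every other. When the event is framed by exons IIIa and IIIc, a model in which inclusion puts IIIb and IIIc into 1 transcript, the order differs. The level was then 0.40 (0.27 to 0.56) in WT, 0.13 (0.06 to 0.24) in TKO, 0.30 (0.17 to 0.47) in HP1a-KD and 0.10 (0.02 to 0.22) in HP1b-KD. TKO and HP1b-KD lie below WT with intervals apart, and HP1a-KD overlaps WT. From WT to HP1a-KD and HP1b-KD the IIIb level thus went up under one frame and down under the other. Inclusion reads set against skipping reads cannot show the difference between TKO and WT, since both had 0 skipping reads. Under either frame WT had 26 inclusion reads and TKO had 6. TKO therefore had fewer than 20 distinguishing reads under both frames. With exon IIIc downstream, HP1a-KD had 16 inclusion and 13 skipping reads, and HP1b-KD had 3 and 9, also fewer than 20.

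**Figure D1:**
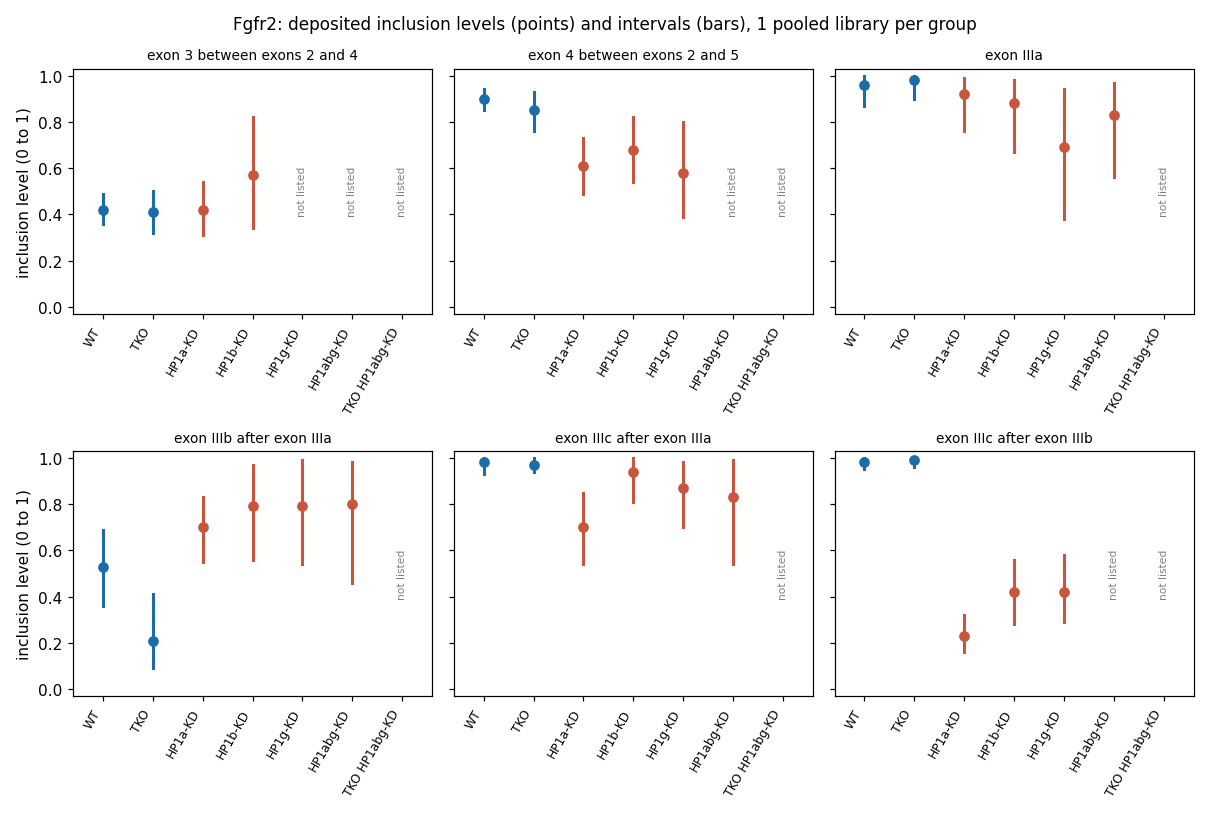
Deposited inclusion levels of 6 Fgfr2 events (vertical axis, 0 to 1) in the 7 libraries (horizontal axis), with points for the level and bars for the deposited interval, blue for untransfected and red for siRNA-treated cells. Exon IIIc after exon IIIb stands at 0.98 and 0.99 in WT and TKO and at 0.23 to 0.42 in the single knock-downs, while exon 3 stands at 0.41 to 0.57 in the 4 libraries that list it.

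The events above each assume a pair of isoforms that do not describe mutually exclusive exons, so the reads of IIIb and IIIc were also set against each other directly. Inclusion reads were taken from the events with exon IIIa upstream and the shared exon downstream, where both exons have the same flanks and nearly the same length. This measure was chosen after the values were seen. IIIb made up 26 of 125 such reads in WT, 20.8% (exact Clopper-Pearson 95% interval 14.1 to 29.0), and 6 of 91 in TKO, 6.59% (2.46 to 13.8). In the knock-downs of WT cells it made up 52 of 102 in HP1a-KD, 51.0% (40.9 to 61.0), 19 of 63 in HP1b-KD, 30.2% (19.2 to 43.0), 25 of 64 in HP1g-KD, 39.1% (27.1 to 52.1), and 19 of 38 in HP1abg-KD, 50.0% (33.4 to 66.6). IIIc reads outnumbered IIIb reads in WT, TKO, HP1b-KD and HP1g-KD, and both were about equal in HP1a-KD and HP1abg-KD. By junction reads alone IIIb was the larger in both libraries where they could be set side by side, with 68.3% in HP1a-KD and 55.0% in HP1b-KD, so the order in HP1b-KD turns with the reads used. TKO had the smallest share, with an interval apart from WT and from every knock-down. The WT interval is apart from those of HP1a-KD and HP1abg-KD and overlaps those of HP1b-KD and HP1g-KD. These intervals cover counting error alone and hold no spread between replicates.

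**Figure D2:**
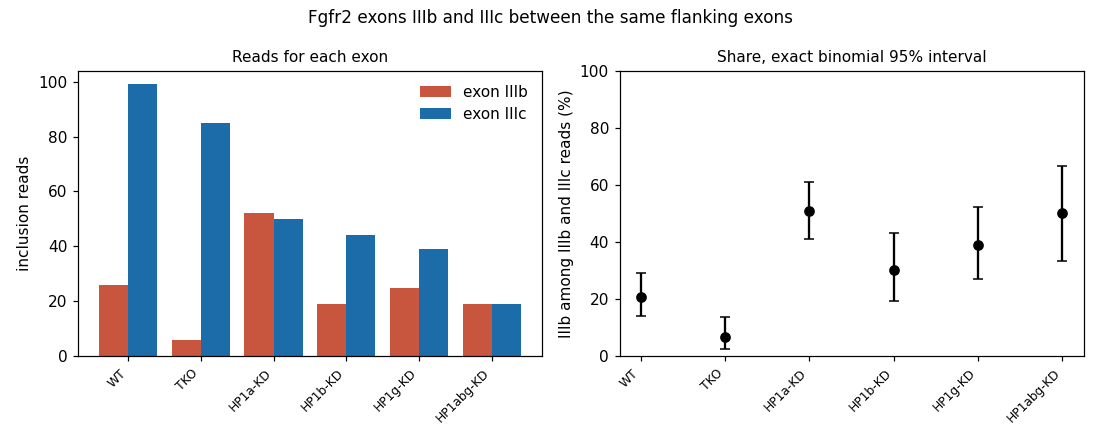
Left, inclusion reads of Fgfr2 exons IIIb (red) and IIIc (blue) per pooled library; right, the share of IIIb among both, in percent, with exact binomial 95% intervals. TKO has the smallest share at 6.59%, WT has 20.8%, and the knock-downs of WT cells range from 30.2% to 51.0%.

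The kind of read behind these values differed with the library type. In WT the IIIc inclusion reads numbered 99 with either upstream exon, and in TKO 85 with either, and IIIb inclusion reads were likewise 26 and 6 with either downstream exon. No read joined exon IIIa to IIIc past IIIb in WT or TKO, and none joined IIIb to the shared exon. The knock-down libraries had 20, 18 and 14 more IIIc inclusion reads with exon IIIa upstream than with exon IIIb upstream in HP1a-KD, HP1b-KD and HP1g-KD. They also held reads that join exon IIIa to IIIc past IIIb, 13 in HP1a-KD and 9 in HP1b-KD. The high IIIc level in WT and TKO thus rests on no read across the junctions of IIIa with IIIc or of IIIb with the shared exon. Across all events that share a skipped exon and its downstream exon, each with at least 20 inclusion reads, pairs with equal inclusion reads made up 15.3% of 242 in WT and 18.8% of 261 in TKO, against 1.8% to 3.1% in the 5 knock-down libraries. Of events with enough reads, 46.5% in WT and 51.3% in TKO lacked any skipping read, compared with 31.5% to 35.3% after knock-down. The part of read type in the Fgfr2 difference was not tested.

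Exon 4, the acid box exon, had lower deposited levels in the single knock-downs than in WT, and by reads HP1a-KD alone was apart from WT. Between exons 2 and 5 its level was 0.90 (0.85 to 0.94) in WT and 0.85 (0.76 to 0.93) in TKO, against 0.61 (0.49 to 0.73) in HP1a-KD, 0.68 (0.54 to 0.82) in HP1b-KD and 0.58 (0.39 to 0.80) in HP1g-KD. All 3 knock-downs lie below WT with intervals apart, and only HP1a-KD is apart from TKO. Unlike at IIIc, every library had reads of both kinds, with 192 for inclusion and 16 for skipping in WT, 81 and 10 in TKO, 51 and 17 in HP1a-KD, 35 and 8 in HP1b-KD, and 16 and 6 in HP1g-KD. Inclusion as a share of these reads was 92.3% (95% interval 87.8 to 95.5) in WT, 75.0% (63.0 to 84.7) in HP1a-KD, 81.4% (66.6 to 91.6) in HP1b-KD and 72.7% (49.8 to 89.3) in HP1g-KD. The intervals of HP1b-KD and HP1g-KD overlap that of WT.

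Exon 3, whose loss gives a receptor without the outermost Ig domain, was included at an intermediate level. Between exons 2 and 4 the level was 0.42 (0.36 to 0.49) in WT, 0.41 (0.32 to 0.50) in TKO, 0.42 (0.31 to 0.54) in HP1a-KD and 0.57 (0.34 to 0.82) in HP1b-KD. All 4 intervals overlap. The reads did not follow these levels: inclusion was 57.4% of the distinguishing reads in WT and in TKO, but 82.7% in HP1a-KD and 90.6% in HP1b-KD, on 116 and 86, 54 and 40, 67 and 14, and 29 and 3 reads for inclusion and skipping. The step from reads to levels is inside MISO and was not repeated here. The 117-nt exon between exons 5 and 6 had no inclusion read in any of the 4 libraries that list it, on 11 to 45 skipping reads, with levels of 0.01 to 0.04. The fewest of these, 11 in TKO, allow an inclusion share of up to 28.5% by the exact 95% interval, and the 45 of HP1a-KD allow up to 7.87%. Exon IIIa was included at 0.96 in WT, at 0.98 in TKO, and from 0.69 to 0.92 after knock-down in WT cells, with 0 skipping reads throughout and overlapping intervals.

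A single call rule was applied to all exons: an adjusted p no greater than 0.05 by Fisher's exact test on the reads for inclusion and for skipping, a level difference of 0.1 or more, and 20 or more such reads per library. By this rule 3 of 8 Fgfr2 events with enough reads were lower in HP1a-KD than in WT and 0 higher, where 10.2% of all tested exons were lower and 1.64% higher. They were IIIc after IIIb, IIIb before IIIc, and exon 4. In HP1b-KD 1 of 6 was lower (IIIc after IIIb; 9.91% of all) and 1 higher (exon 3; 1.92% of all). In HP1g-KD 1 of 4 was lower, again IIIc after IIIb, where 9.84% of all were lower and 1.6% higher. In HP1abg-KD 1 event had enough reads and was not called (11.2% of all called in either direction, 9.37% lower and 1.83% higher). Between TKO and WT 0 of 5 were called (4.57% of all in either direction, 3.18% higher and 1.39% lower in TKO). These contrasts share the WT library, Fgfr2 was chosen on the first 3 of them, and the events share reads, so the counts are a description.

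In Src, the 108-nt leader exon had a higher deposited inclusion level in TKO than in WT. Between the first exon and the 77-nt exon its level was 0.35 (0.26 to 0.45) in WT and 0.82 (0.68 to 0.93) in TKO, from 43 reads with the exon and 37 without it in WT, and 62 with it and 3 without it in TKO. The intervals are apart and both libraries are of the same read type. Framed by the first exon and the 177-nt exon, the level was 0.45 (0.29 to 0.63) in WT and 0.88 (0.70 to 0.99) in TKO, again apart, on 23 and 28 inclusion reads and 0 skipping reads in both. By the call rule 1 of 5 Src events with enough reads was higher in TKO, the 108-nt exon, and 0 lower, where 3.18% of all tested exons were higher and 1.39% lower. Src was chosen on this contrast, so nothing follows from that count.

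The junction reads give the same exon choice without reads inside the exons. The 77-nt exon has an event with either upstream exon, and its inclusion reads differ between those events only by the reads that join it to the first exon or to the 108-nt exon. Reads from the first exon numbered 37 in WT and 3 in TKO, and reads from the 108-nt exon, obtained by subtraction, 20 in WT and 34 in TKO. The 108-nt exon was therefore the partner in 35.1% of these junction reads in WT (exact 95% interval 22.9 to 48.9, n = 57 reads) and 91.9% in TKO (78.1 to 98.3, n = 37 reads). The direction is that of the deposited levels, from part of the same reads. Both forms splice into the same 77-nt exon, and the difference concerns the untranslated leader of the mRNA. Reads that join the first exon to the 108-nt exon are not counted apart from other inclusion reads, so that junction could not be examined.

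**Figure D3:**
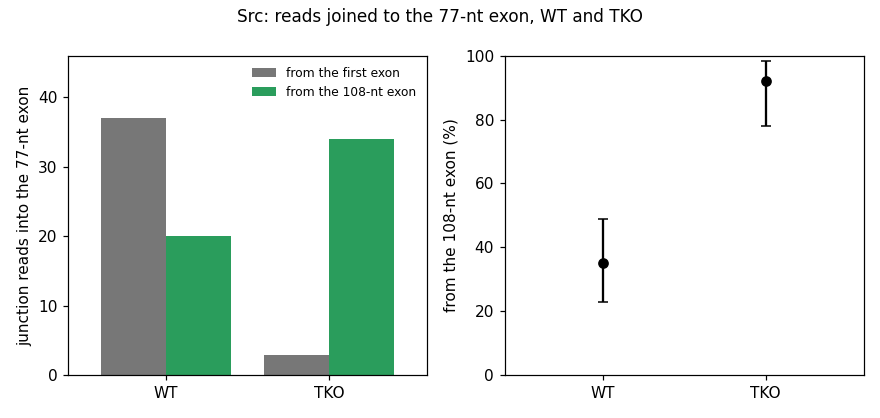
Left, reads joined to the Src 77-nt exon from the first exon (grey) or from the 108-nt exon (green) in WT and TKO; right, the share from the 108-nt exon in percent with exact binomial 95% intervals. The share is 35.1% in WT and 91.9% in TKO.

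In the knock-down libraries the 108-nt exon could hardly be read. The event with the 77-nt exon was listed in none of them, and the event with the 177-nt exon had levels of 0.45 (0.07 to 0.90) in HP1a-KD, 0.37 (0.01 to 0.95) in HP1b-KD, 0.54 (0.13 to 0.91) in HP1g-KD and 0.36 (0.03 to 0.78) in HP1abg-KD, on 0 or 1 distinguishing reads. These intervals span most of the range, so the levels say nothing about a difference from WT at this depth. Reads that fit neither isoform made up 83.1% to 99.4% of Src event reads in the knock-downs, with a median of 92.5% over events and libraries, against a median of 56.1% in WT and TKO. The event was not listed in TKO HP1abg-KD, so TKO and WT cells could not be compared under knock-down. The 77-nt exon offers an indirect reading: its inclusion reads after the first exon and after the 108-nt exon numbered 5 and 10 in TKO HP1abg-KD, 12 and 12 in HP1abg-KD, 41 and 38 in HP1a-KD, 19 and 15 in HP1b-KD, and 16 and 15 in HP1g-KD. Of these 5 libraries TKO HP1abg-KD alone had more reads with the 108-nt exon, as TKO had, on very few reads.

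The deposited levels of the other Src exons lay close together in WT and TKO. The 77-nt exon was included at 0.99 in WT and TKO after either upstream exon, with 0 skipping reads beside 143 to 239 for inclusion. In the knock-downs its levels were 0.75 to 0.95, on 5 to 41 inclusion reads and at most 1 skipping read. Several of these lower levels have intervals apart from WT, such as 0.75 (0.44 to 0.96) in TKO HP1abg-KD after the first exon, although no skipping read was found there. The 106-nt leader exon had a low deposited level, at 0.11 (0.06 to 0.17) in WT on 10 inclusion and 37 skipping reads. In TKO its level was 0.14 (0.06 to 0.27) on 5 inclusion and 3 skipping reads. These are fewer than 20 distinguishing reads, and unlike the level they were more for inclusion than for skipping. This exon was not listed in the knock-downs. The N1 exon was close to absent: 1 inclusion read and 60 skipping reads in WT, a level of 0.02 (0.0 to 0.07), and 0 and 35 in TKO, a level of 0.03 (0.0 to 0.08). In the knock-downs N1 had 0 inclusion reads beside 4 to 12 skipping reads, with levels of 0.07 to 0.16 whose upper bounds reach 0.25 to 0.50. The 12 skipping reads of HP1a-KD allow an inclusion share of up to 26.5%.

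**Figure D4:**
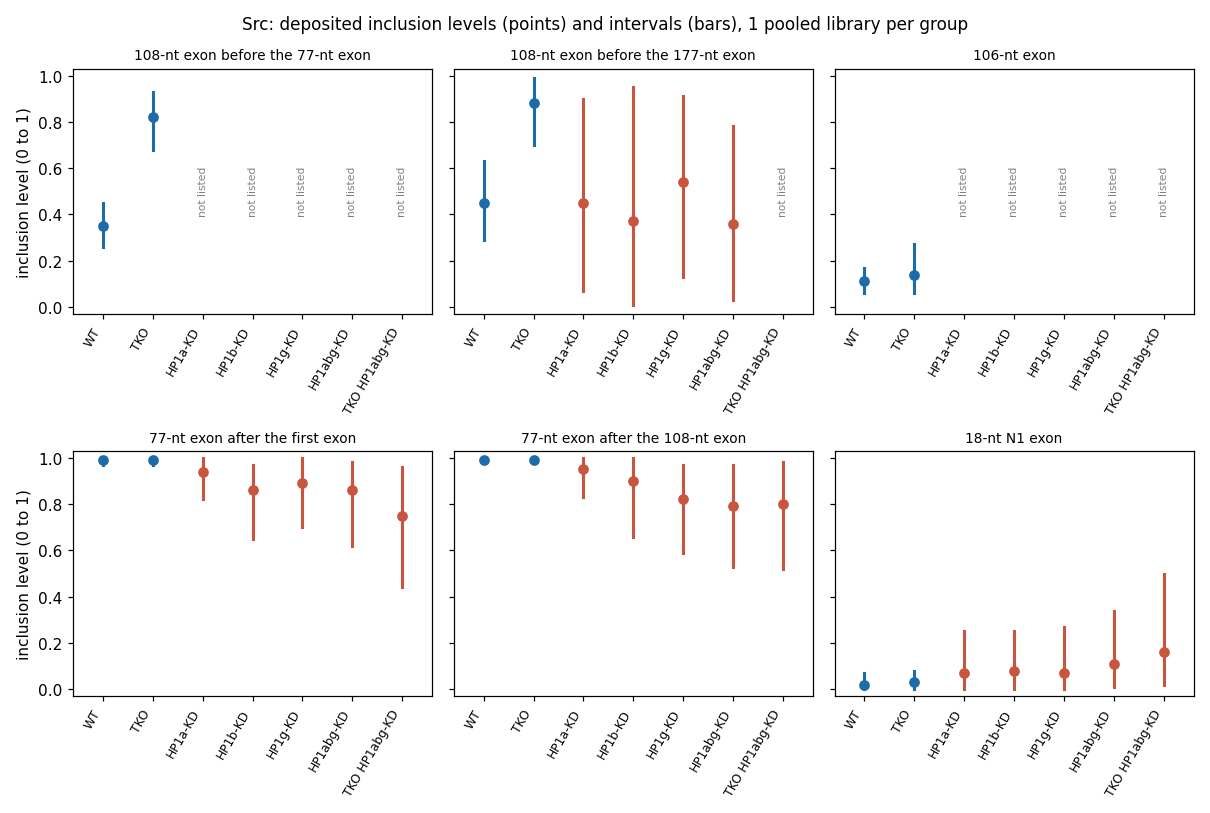
Deposited inclusion levels of the 6 Src events (vertical axis, 0 to 1) in the 7 libraries (horizontal axis), with points for the level and bars for the deposited interval, blue for untransfected and red for siRNA-treated cells. The 108-nt exon stands at 0.35 in WT and 0.82 in TKO before the 77-nt exon, and its intervals in the knock-downs span most of the axis.

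The exons with the pattern most like that of Fgfr2 exon IIIc after IIIb were found by the root mean square difference of level over the 5 libraries that list it, among 5011 events with at least 20 distinguishing reads in each. The nearest, 1 per gene, were in Gm21992 (difference 0.041), a predicted gene, Cfap298 (0.062), a factor for motile cilia, Spr (0.078), the sepiapterin reductase of tetrahydrobiopterin synthesis, Wfdc2 (0.080), a secreted whey-acidic protein, and Irak1 (0.084), a kinase of interleukin-1 receptor signalling. Each stood at 0.92 to 0.99 in WT and TKO and at 0.24 to 0.46 in the 3 single knock-downs. No such search was possible for the Src exon, which is listed with the 77-nt exon in WT and TKO alone.

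Exons of other genes in FGF receptor signalling (ligands, receptors, adaptors, the RAS and MAP kinase cascade and its feedback inhibitors) were not called between TKO and WT. Of 37 tested exons in 22 of 53 listed genes 0 passed, against 4.57% of all exons, and their median absolute difference was 0.010, against 0.020 over all. In HP1a-KD against WT 4 of 29 exons (13.8%) passed, all lower, near the 11.8% of all exons called and 10.2% lower: in Fgf5, a growth factor of primed pluripotent cells (0.91 in WT, 0.60 in HP1a-KD), Araf, a RAF kinase (0.30 and 0.03), Shc1, an adaptor of receptor kinases (0.99 and 0.73), and Gab1, a docking protein (0.30 and 0.16). Araf and Shc1 were also lower in HP1b-KD (2 of 27 called), HP1g-KD (4 of 24, with Gab1 lower and the transcription factor gene Etv4 higher) and HP1abg-KD (2 of 24), that is 7.41%, 16.7% and 8.33% of the list against 11.8%, 11.4% and 11.2% of all exons. In TKO HP1abg-KD against TKO 3 of 24 were lower, in Shc1 (0.72, against 0.97 in TKO), Gab1 (0.12 and 0.30) and Araf (0.03 and 0.21), where 10.9% of all exons were lower. The median difference of the list was -0.050 to -0.030 in the 5 comparisons of a knock-down with untransfected cells, and that of all exons -0.040 to -0.030.

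Among Src family kinases, their regulators and their substrates, 2 of 46 exons (4.35%, against 4.57% of all) were called between TKO and WT, both higher in TKO. They were an 18-nt exon of Ctnnd1, the p120 catenin (0.37 in WT, 0.53 in TKO), and an exon of Cttn, the actin-binding substrate cortactin (0.90 and 1.0). Against WT, 6 of 33 exons were called in HP1a-KD (all lower), 5 of 29 in HP1b-KD (3 lower), 4 of 27 in HP1g-KD (3 lower) and 3 of 25 in HP1abg-KD (2 lower), or 12.0% to 18.2% of the list, where 11.2% to 11.8% of all exons were called. The largest difference in each was at a 180-nt exon of Ctnnd1, included at 0.67 in WT and at 0.07, 0.04, 0.08 and 0.05 in HP1a-KD, HP1b-KD, HP1g-KD and HP1abg-KD. Ptk2, the focal adhesion kinase, had an exon at 0.32 in WT and 0.03 in HP1a-KD, and Rapgef1, an exchange factor recruited by CRK adaptors, had one at 0.83 in WT, 0.57 in HP1a-KD and 0.49 in HP1g-KD. In TKO HP1abg-KD against TKO 4 of 28 were lower and 1 higher, where 10.9% of all exons were lower and 1.31% higher. Of the exons of other tyrosine kinase genes, a list that shares Ptk2 with this one, 0 of 30 were called between TKO and WT and 3 of 25 in HP1a-KD (12.0%, against 11.8% of all), all in Ptk2. In HP1b-KD, HP1g-KD and HP1abg-KD 0 of 19, 0 of 17 and 0 of 14 passed, against 11.8%, 11.4% and 11.2% of all exons. In TKO HP1abg-KD against TKO 1 of 18 (5.56%) passed, against 12.3% of all exons.

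Among splicing factors known to act on exons of Fgfr2 or Src, 2 of 60 exons (3.33%, against 4.57% of all) were called between TKO and WT: one of Celf1 higher in TKO (0.30 in WT, 0.48 in TKO) and one of Tia1 lower (0.71 and 0.30). Against WT the counts were 11 of 45 in HP1a-KD, 11 of 42 in HP1b-KD, 11 of 38 in HP1g-KD and 9 of 39 in HP1abg-KD, that is 23.1% to 28.9%, where 11.2% to 11.8% of all exons were called. In each of these libraries 6 were higher. The largest difference was at a 117-nt exon of Morf4l1, whose product MRG15 binds methylated histone H3 and can recruit PTBP1. Its level was 0.10 in WT and 0.93, 0.95, 0.91 and 0.89 in HP1a-KD, HP1b-KD, HP1g-KD and HP1abg-KD. TKO also stood at 0.10 and TKO HP1abg-KD at 0.91, so this exon divides the libraries by read type and transfection too. The WT level of 0.10 stands on 356 inclusion and 508 skipping reads, and that of HP1a-KD on 116 and 0. Ptbp1, a repressor of the Src N1 exon, had a 31-nt exon at 0.71 in WT and 0.70 in TKO and at 0.89 to 0.94 in the 5 knock-down libraries, and a 78-nt exon at 0.65 and 0.56 in WT and TKO and at 0.41 to 0.47 in those 5. In TKO HP1abg-KD against TKO 10 of 37 were called, 4 higher and 6 lower, among them a 110-nt exon of Esrp1 at 0.47 (0.36 to 0.59) against 0.85 (0.71 to 0.97). TKO HP1abg-KD and HP1abg-KD share the read type and were both transfected, but with different siRNA doses. Between them 0 of 37 exons of splicing factors, 0 of 25 of FGF receptor signalling, 0 of 25 of the Src family list and 0 of 14 of other tyrosine kinases were called, where 0.469% of all were.

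Markers of epithelial and mesenchymal cells were also read. Epithelial markers with an event were 4 of 18 (Esrp1, Cldn7, Rab25 and Spint2), with summed levels of 445 RPM in WT, 318 RPM in TKO and 796 to 911 RPM in the knock-down libraries. Esrp1 alone had 160 RPM in WT, 124 RPM in TKO and 234 to 269 RPM after knock-down. Mesenchymal markers with an event were 3 of 23 in WT and TKO (sums of 546 and 611 RPM) and 1 or 2 in the knock-downs (289 to 447 RPM), so these sums cover different genes and are not compared. Fn1, listed in all 7 libraries, stood at 357 RPM in WT, 406 RPM in TKO, 344 to 433 RPM in the knock-downs of WT cells and 289 RPM in TKO HP1abg-KD. Cd44 stood at 76.9 RPM in WT and 167 RPM in TKO and was listed in no knock-down library. Zeb1 stood at 112 RPM in WT, 38.4 RPM in TKO, 13.1 RPM in HP1a-KD and 11.2 RPM in HP1b-KD. It was not listed in HP1g-KD, HP1abg-KD or TKO HP1abg-KD. Cdh1, Epcam, Esrp2 and Vim have no listed event. The order of the libraries by epithelial sum has TKO lowest, as has the IIIb share, but the orders differ among the knock-downs of WT cells. There the sum was highest in HP1g-KD (911 RPM, IIIb share 39.1%), and the share was highest in HP1a-KD (51.0%, sum 820 RPM). Event reads also shift with read type and exon structure, and the part of these markers in the choice of IIIb or IIIc was not tested.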

How the data were processed

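RNA of 14 samples in 7 groups was used; the 2 bisulfite and 6 MNase samples were not analysed here. TopHat2, Bowtie2 and mm10 are named in the submitters' processing notes, without versions. Per the file headers, the authors deposited MISO summaries of skipped exons: the inclusion level as a fraction, its interval bounds, and reads per class as text. Per the labels, 1 file stands for both replicates. For MISO, version, event annotation and settings are not given here.

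Events were joined by coordinates and assigned to the protein-coding RefSeq gene (GRCm38.p6 table) that holds the whole span; 10335 of 10873 lay in 1 gene. Promoter sequences are RefSeq's (GRCm38.p6); both genes matched. A two-sided Fisher's exact test (SciPy 1.17.1) was run on reads for inclusion and skipping in each pair of libraries. The p-values were adjusted by Benjamini-Hochberg over every exon with 20 or more such reads per library, and the call rule stands in the text. Libraries are compared, not conditions. The test was checked on simulated data. Shares have exact Clopper-Pearson intervals for counting error. Alternatives were read minimums of 10 and 50, deposited intervals that do not overlap, and a null odds ratio set by exon length. All events of both genes are described; list genes are named when called, at most 5 per list and comparison. The search for like patterns was set for all 7 libraries and was run on the 5 that list the Fgfr2 event. The genes and lists were chosen with earlier results of these data known.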

Additional observations from a re-analysis of the deposited data

How the results depend on the processing

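The tests planned for the Fgfr2 and Src exons between TKO HP1abg-KD and TKO or HP1abg-KD were not run, since that library lists no Fgfr2 event, and none of its 3 Src events has 20 distinguishing reads. No paired analysis was possible because the authors merged the replicates of each group. With non-overlapping deposited intervals in place of the test, calls numbered 1114 instead of 713 in HP1a-KD against WT, 1084 instead of 677 in HP1b-KD, 1001 instead of 593 in HP1g-KD, 861 instead of 514 in HP1abg-KD, 1013 instead of 636 in TKO HP1abg-KD against TKO, and 71 instead of 21 against HP1abg-KD; the cause was not tested. When the expected odds ratio followed exon length, calls divided into 196 higher and 140 lower instead of 245 and 107 for TKO against WT, 100 and 263 instead of 84 and 430 for HP1abg-KD against WT, 80 and 352 instead of 68 and 568 for TKO HP1abg-KD against TKO, and 9 and 13 instead of 11 and 10 for TKO HP1abg-KD against HP1abg-KD. In HP1a-KD, HP1b-KD and HP1g-KD lower calls went from 614, 567 and 510 to 433, 380 and 345. A minimum of 50 reads removed exon IIIc after IIIb in HP1b-KD and HP1g-KD. The exon 3 call in HP1b-KD was lost with intervals, which overlap those of WT. The call of IIIb before IIIc in HP1a-KD was lost at 50 reads and with intervals, and that event was called lower in HP1b-KD at 10 reads. Intervals added calls of exon 4 in HP1b-KD and HP1g-KD and of IIIc after IIIa in HP1a-KD. By junction reads alone, chosen after the data were seen, the IIIb share was 68.3% instead of 51.0% in HP1a-KD and 55.0% instead of 30.2% in HP1b-KD; WT and TKO had no such reads. By the authors' assigned reads it was 28.4% in WT and 5.29% in TKO.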
